A study of Mus musculus with 12 samples.

Results

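The Rhox genes are a family of homeobox genes clustered on the mouse X chromosome. They encode transcription factors that are known mainly from the testis, ovary and placenta, where groups of them are used by Sertoli cells, germ cells, granulosa cells or trophoblast. In most somatic tissues the cluster is known to be silent, and DNA methylation is one known part of that silencing. The cluster also holds runs of near-identical copies of Rhox2, Rhox3 and Rhox4 that arose by tandem duplication, so a probe for one copy may also take up RNA of another.

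The family was selected on measured values: it was picked because Rhox2c rose with passage in these arrays. The genes listed were Rhox2a, Rhox2c, Rhox3a, Rhox4b, Rhox5, Rhox6, Rhox8, Rhox9, Rhox10 and Rhox13. A probe was taken as a member when its accession belonged to a listed gene. Of the 10 listed genes, 8 had a probe, with 9 probes in all, and no accession matched Rhox2a or Rhox4b. Another 12 Rhox genes had a probe, which gave 20 Rhox genes and 25 Rhox probes among 20144 named genes and 39429 probes. Between Rhox1 and Rhox13 the RefSeq annotation of GRCm38.p6 places 41 Rhox genes and pseudogenes, 33 of them protein-coding, at chrX:37213804-38129966, and 21 of the 41 had no probe. The symbols of the copies have shifted over time, and the present Rhox2c once bore the name Rhox2b.

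Expression was measured in Dunn, a mouse osteosarcoma line of low metastatic potential, and in LM8, a metastatic line derived from Dunn by selection in mice. Early Dunn cells were at passage 25 and late ones at passage 86, and early and late LM8 cells were at passages 24 and 91. Each of the 4 groups was represented by 3 arrays, and no group received a treatment or carried an engineered allele. The submitters state that the replicates of a condition were cultured independently, but each line at each passage came from a single culture history, so passage cannot be told apart from whatever else happened to that history.

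The signal at the 75th percentile of an array ran from 287.2 to 603 in early Dunn, from 685.9 to 961.4 in late Dunn, from 893 to 1316 in early LM8 and from 1166 to 1903 in late LM8. Each of the 3 slides held 1 array of every group, always at the same position. Levels below are scaled log2 signals, the log2 of the processed signal of a probe minus that of the 75th percentile on its array, and differences are differences of these. Over all probes the median difference was -0.33 for late minus early Dunn, -0.20 for late minus early LM8, -0.85 for LM8 minus Dunn at early passage and -0.66 at late passage. Without scaling these medians were 0.64, 0.17, 0.62 and 0.20. The share of all probes well above background ran from 39.0% to 49.0% in early Dunn, the lowest group, and from 52.4% to 59.6% in late Dunn. In LM8 it ran from 53.7% to 56.0% at early and from 55.5% to 59.1% at late passage. Of the 9 osteoblast marker genes with a probe, between 5 and 9 per group were well above background on all 3 arrays, as were 2 of 4 leukocyte markers in every group. None of 4 epithelial markers was so in any group, and of 4 endothelial markers 1 was in late LM8 and none in the other groups.

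The promoters of the Rhox genes that moved furthest are shown because copies of Rhox2 and the single-copy gene Rhox5 both rose with passage in LM8. Both were also lower in LM8 than in Dunn at early passage, while at late passage their directions differed. The sequences come from RefSeq (GRCm38.p6) and have CG, the dinucleotide that DNA methylation acts on, in capitals. Those of Rhox2h and Rhox5 run from 250 bases before to 50 bases after the annotated start of the gene. The annotated genes of Rhox2c and Rhox2e start at 37453480 and 37530322, so much of these 2 stretches lies within the gene.
Rhox2c, chrX:37453409-37453708, plus strand: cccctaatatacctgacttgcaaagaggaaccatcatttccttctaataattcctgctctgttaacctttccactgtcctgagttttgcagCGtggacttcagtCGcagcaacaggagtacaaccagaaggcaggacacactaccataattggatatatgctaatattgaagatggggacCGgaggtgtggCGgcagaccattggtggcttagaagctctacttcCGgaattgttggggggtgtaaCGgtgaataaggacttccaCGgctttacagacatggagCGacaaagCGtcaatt
Rhox2e, chrX:37530218-37530517, plus strand: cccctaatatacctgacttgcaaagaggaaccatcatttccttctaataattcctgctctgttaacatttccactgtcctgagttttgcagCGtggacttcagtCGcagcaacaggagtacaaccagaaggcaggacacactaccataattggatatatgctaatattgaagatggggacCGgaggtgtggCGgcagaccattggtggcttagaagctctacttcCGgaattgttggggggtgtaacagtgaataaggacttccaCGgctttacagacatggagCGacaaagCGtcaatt
Rhox2h, chrX:37673228-37673527, minus strand: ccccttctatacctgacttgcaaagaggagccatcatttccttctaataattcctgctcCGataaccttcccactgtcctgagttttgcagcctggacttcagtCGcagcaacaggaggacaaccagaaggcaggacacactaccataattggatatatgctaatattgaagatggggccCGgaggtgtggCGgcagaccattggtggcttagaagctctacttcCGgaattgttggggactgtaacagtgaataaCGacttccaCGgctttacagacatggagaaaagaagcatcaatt
Rhox5, chrX:37754358-37754657, plus strand: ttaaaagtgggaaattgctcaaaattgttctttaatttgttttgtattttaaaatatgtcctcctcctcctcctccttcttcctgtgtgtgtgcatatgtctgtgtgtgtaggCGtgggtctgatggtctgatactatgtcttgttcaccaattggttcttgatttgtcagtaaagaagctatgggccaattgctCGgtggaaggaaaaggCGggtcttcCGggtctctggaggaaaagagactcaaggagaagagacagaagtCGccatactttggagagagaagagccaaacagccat

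The table of promoters held 28 Rhox entries among 32851 promoters of the same length. CG was counted as the letters CG, which read the same on both strands, and 94.6% of all promoters held at least 1, with a median of 7. The 4 promoters shown hold 9, 8, 7 and 5, and the median over the 28 Rhox promoters was also 7. The Rhox3 promoters held from 2 to 4 and the Rhox4 promoters from 10 to 12. The letters GGAA, the core of sites for ETS factors, were counted on both strands and were found in 96.0% of all promoters. They occurred 7 times in the promoters of Rhox2c and Rhox2e and 6 times in those of Rhox2h and Rhox5, and 8.0% of all promoters held at least 7. The letters GGGCGG, searched on both strands and overlapping CG, were in 35.7% of all promoters and in 8 of the 28 Rhox promoters, but in none of the 4 shown. The Rhox2c and Rhox2e promoters were identical at 298 of 300 aligned positions, and those of Rhox2c and Rhox2h at 282 of 300. Over the 21 pairs of the 7 Rhox2 promoters the identity of the aligned stretch ran from 94.0% to 100.0%.

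Most Rhox probes were near background in all groups. By the scanner software's call, 6 of the 25 were never well above background, and 14 of the 25 were so on fewer than 2 of 3 arrays in every group. The 14 dim probes were called above background 11 times in all, 5 of them on late Dunn replicate 1 and 0 on the other late Dunn arrays, and their highest processed signal was 109. Late Dunn replicate 1 also stood apart from the other late Dunn arrays over all probes. Among the listed genes, the probes of Rhox6, which is known from placenta and germ cells, and of Rhox10, known for its part in spermatogonial stem cells, were above background on 0 of 12 arrays. Rhox9, a close relative of Rhox6, and Rhox13, a gene of germ cells, were above background on 1 array each. No fold is given for these genes. Probes above background on all 12 arrays were those of Rhox2e, Rhox2h (both probes), Rhox5 and Rhox8 (1 of 2 probes).

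**Figure D1:**
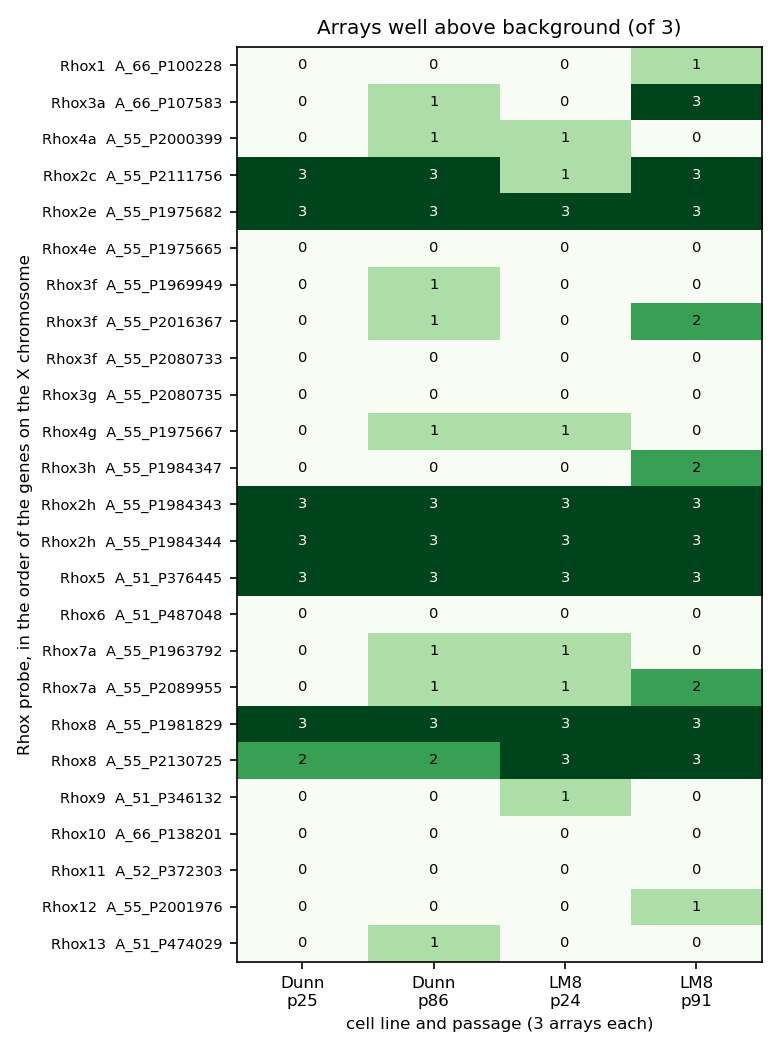
Number of arrays, of 3 in each group, on which each of the 25 Rhox probes was well above background, with probes in rows in the order of their genes on the X chromosome and the line and passage (p) in columns. Rhox2, Rhox5 and Rhox8 fill most of the dark cells, and Rhox3a was above background on 3 of 3 arrays only in late LM8.

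Rhox2c, the gene for which the family was picked, was lowest in early LM8 and highest in late LM8. Its scaled log2 signal was -2.01, -2.0 and -1.99 in early Dunn and 0.39, 0.24 and -0.51 in late Dunn. In LM8 it was -7.19, -5.61 and -7.26 at early passage and 0.82, 0.61 and 0.64 at late passage. The 4 groups did not overlap, and the order was early LM8, early Dunn, late Dunn, late LM8. In early LM8 only replicate 2 was above background, so a fold against early LM8 rests on signals mostly near background. The difference between late and early cells, which chose the family, was 7.37 in LM8 and 2.04 in Dunn on the log2 scale and is given with no test. In these bulk samples, more cells with Rhox2c RNA and more RNA per cell cannot be told apart, and the same holds for the other genes.

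The other Rhox2 probes may read the same RNA as that of Rhox2c, and their values are likewise descriptions. The Rhox2e probe was at -0.57, 0.08 and -0.37 in early Dunn, 0.61, 0.85 and 0.48 in late Dunn, -5.41, -4.69 and -4.94 in early LM8 and 2.08, 2.26 and 2.07 in late LM8. The Rhox2h probe A_55_P1984343 was at 0.40, 0.12 and 0.65 in early Dunn, 0.72, 0.17 and 0.34 in late Dunn, -5.28, -5.05 and -5.09 in early LM8 and 1.89, 1.48 and 1.31 in late LM8. Early LM8 lay below and late LM8 above every Dunn array for both probes, while early and late Dunn overlapped for Rhox2h and not for Rhox2e. The second Rhox2h probe, A_55_P1984344, had the same order, with group means of 2.40 ± 0.39 (SD, n = 3) in early Dunn, 2.59 ± 0.05 in late Dunn, -3.41 ± 0.25 in early LM8 and 3.57 ± 0.14 in late LM8. Late minus early LM8 was 7.15 for Rhox2e and 6.70 and 6.97 for the Rhox2h probes. In Dunn the same differences were 0.93, 0.02 and 0.18, so that of the Rhox2 probes those of Rhox2c and Rhox2e differed by more between early and late Dunn than those of Rhox2h. LM8 minus Dunn at early passage was -4.68 for Rhox2c, -4.73 for Rhox2e and -5.53 and -5.81 for Rhox2h. At late passage it was 0.65, 1.49, 1.15 and 0.98. These line comparisons use the same arrays as the passage comparisons.

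**Figure D2:**
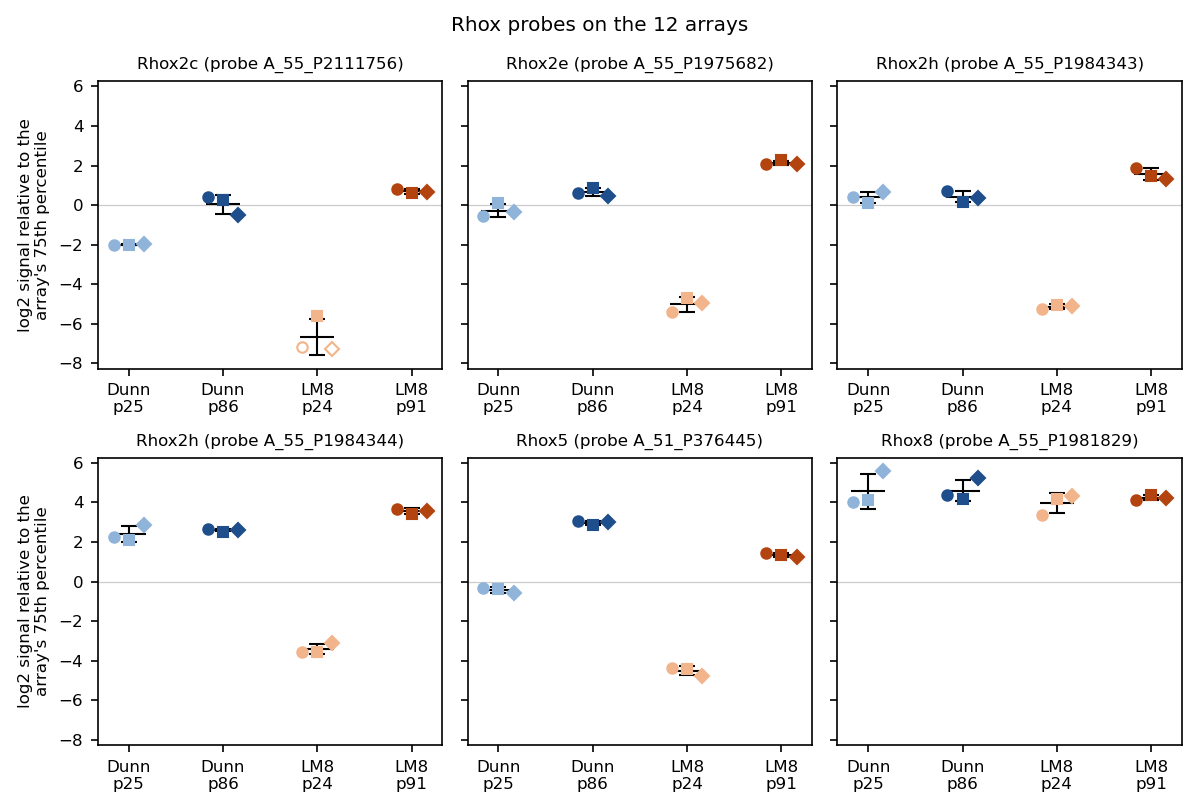
Scaled log2 signal (vertical axis, relative to the 75th percentile of the array) of 6 Rhox probes on the 12 arrays, by line and passage (p), with circle, square and diamond for replicates 1, 2 and 3, open symbols for arrays not well above background, and bars for the mean ± SD of 3 arrays. Early LM8 is the lowest group for the Rhox2 probes and Rhox5. Late LM8 is the highest for the Rhox2 probes and late Dunn for Rhox5. The groups overlap for the Rhox8 probe shown, the brighter of the pair.

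Rhox5, also known as Pem, is the founding member of the family, a gene of Sertoli cells, epididymis and placenta that is also known from tumour cell lines. Its scaled log2 signal was -0.34, -0.39 and -0.60 in early Dunn and 3.06, 2.84 and 2.99 in late Dunn. In LM8 it was -4.37, -4.40 and -4.78 at early passage and 1.43, 1.35 and 1.22 at late passage. No groups overlapped, and the order was early LM8, early Dunn, late LM8, late Dunn. As processed signals, the early LM8 arrays were between 43.2 and 62.3 and the late LM8 arrays between 3135 and 4867.

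Late LM8 cells exceeded early LM8 cells by 5.85 ± 0.20 (SE) in Rhox5, a 57.6-fold difference (limma, adjusted p = 1.11e-04), and by 5.80, 5.76 and 5.99 on the 3 slides. With the replicate number as a block the adjusted p was 0.0115. In Dunn, late cells exceeded early cells by 3.41 ± 0.28, or 10.6-fold, with 3.40, 3.24 and 3.58 on the slides. This did not pass the threshold over all probes (limma, adjusted p = 0.108, unadjusted p = 2.77e-05). In limma fits the adjusted p was 8.38e-05 with all 12 arrays and 0.207 with the replicate block. It lay between 0.0863 and 0.986 when each array was left out. The rise was larger in LM8 than in Dunn by 2.44 ± 0.29 (limma, interaction of line and passage, adjusted p = 0.00671). The interaction did not pass without scaling, where it was 1.84 (adjusted p = 0.534), or with normexp background correction, where it was 1.47 (adjusted p = 0.0952).

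Between the lines, early LM8 was below early Dunn in Rhox5 by -4.08 ± 0.30 on the log2 scale, or 16.9-fold (limma, adjusted p = 0.00161). At late passage LM8 was still lower, by -1.63 ± 0.21, or 3.1-fold (limma, adjusted p = 0.0195). The late difference passed in 1 of 6 fits that each left out an array, the one without late Dunn replicate 1, and its adjusted p reached 0.147 without late LM8 replicate 2. It was 0.137 with the replicate block and 0.345 without scaling, where the difference was -0.76. As a description, Rhox5 was lower and the Rhox2 probes were higher in LM8 between the late lines. Nothing is read from this order, since the Rhox2 values on these arrays belong to the pattern that chose the family.

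Rhox8, known from Sertoli and granulosa cells, had a probe well above background on all 12 arrays, and neither of its probes gave a difference that passed after adjustment. Probe A_55_P1981829 was at 4.02, 4.11 and 5.59 in early Dunn, 4.39, 4.18 and 5.22 in late Dunn, 3.39, 4.16 and 4.35 in early LM8 and 4.15, 4.39 and 4.21 in late LM8, and all 4 groups overlapped. Late minus early was 0.02 ± 0.57 (SE) in Dunn (limma, adjusted p = 0.999) and 0.28 ± 0.29 in LM8 (adjusted p = 0.581). LM8 minus Dunn was -0.61 ± 0.53 at early passage (limma, adjusted p = 0.390) and -0.35 ± 0.34 at late passage (adjusted p = 0.461), and both turned positive without scaling. The other Rhox8 probe, A_55_P2130725, was dim, with processed signals from 16.2 to 89.4, and its differences were -1.20 ± 0.46 in Dunn and -0.34 ± 0.27 in LM8 (limma, adjusted p = 0.782 and 0.476), of which that in Dunn passed the unadjusted threshold only. It lay -0.77 ± 0.36 from Dunn at early passage and 0.09 ± 0.42 at late passage. The 2 probes disagreed on the level of Rhox8, with means of 4.57 and -3.52 in early Dunn and of 4.25 and -4.63 in late LM8. Which of them reads Rhox8 RNA was not tested.

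**Figure D3:**
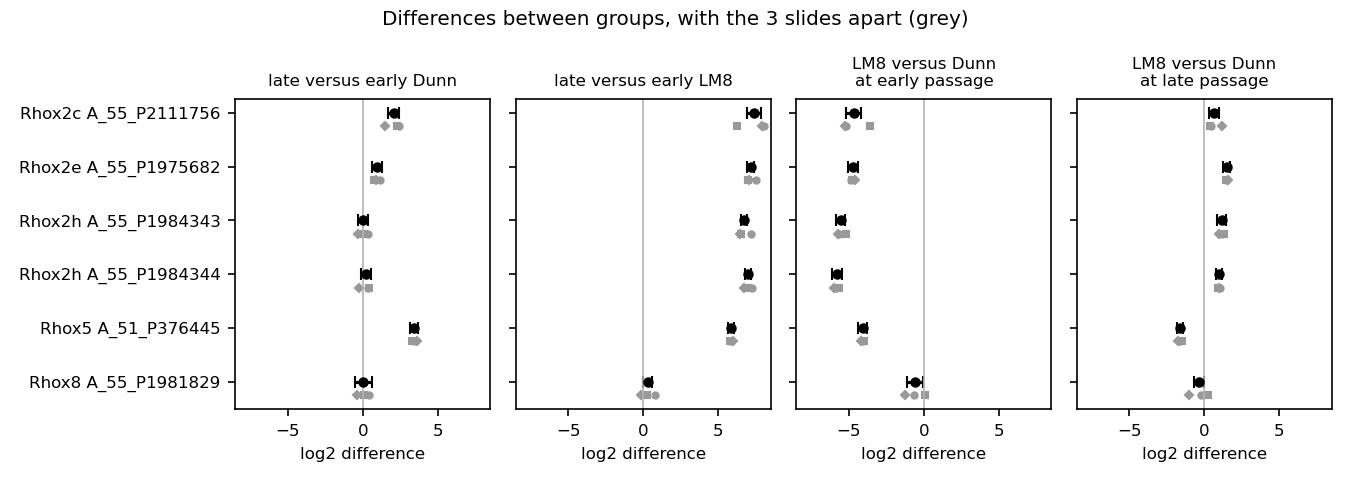
Log2 difference of 6 Rhox probes in the 4 comparisons of groups (black points with the standard error of the limma fit) and on each slide alone (grey circle, square and diamond for slides 1, 2 and 3). The Rhox2 and Rhox5 points lie left of 0 at early passage between the lines and right of 0 for late against early LM8. The points of the Rhox8 probe shown, the brighter of the pair, lie near 0.

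Rhox3a, a member of the Rhox3 run, was above background on 3 of 3 late LM8 arrays, on 1 late Dunn array and on no early array. Its scaled log2 signal was -5.85, -4.88 and -6.17 in late LM8 and -8.24, -8.32 and -7.67 in early LM8. The groups did not overlap, and the probe met the bar for a fold through late LM8 alone. Late LM8 was 1.84-fold higher when early signals were raised to the dimmest signal called above background on each array. The fitted difference was 2.45 ± 0.38 (limma, adjusted p = 0.0258). The call was lost with the replicate block (adjusted p = 0.113) and without early LM8 replicate 1, late LM8 replicate 1 or early LM8 replicate 2 (adjusted p = 0.0994, 0.0722 and 0.0733). It was also lost in 6 other settings, most of all with normexp, where the difference was 0.18 (adjusted p = 0.745), and with a floor on dim signals, where it was 0.88 (adjusted p = 0.217). Between the late lines Rhox3a differed by 0.22 ± 0.44 (adjusted p = 0.724). The probes of Rhox3f (A_55_P2016367), Rhox3h and Rhox7a (A_55_P2089955) were above background on 2 of 3 late LM8 arrays. Rhox3f and Rhox3h were above background on no early LM8 array. With early signals raised in the same way, late LM8 was 1.06-fold and 1.05-fold higher, and neither passed (limma, adjusted p = 0.297 and 0.320). With normexp the differences were -0.09 and -0.14. Rhox7a, above background on 1 early LM8 array, differed by -0.06 ± 0.30 (adjusted p = 0.918). LM8 minus Dunn at late passage was -0.44, 0.43 and -0.93 for the same probes, and none passed.

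Over the 25 Rhox probes, a call needed an adjusted p under 0.05 and a difference over 2-fold, and the threshold of the study's methods, an unadjusted p under 0.05 and over 2-fold, was counted beside it. In late against early LM8, 6 Rhox probes were called, all higher, against 2.19% of all probes, and 8 passed unadjusted against 7.23%. Of the 6, 4 are Rhox2 probes, from which nothing is read since the rule used that contrast, and the other calls among the 21 remaining probes were Rhox5 and Rhox3a. In late against early Dunn, 0 were called by limma against 0.00254% of all probes, and 3 passed unadjusted against 3.98%. Between the lines at early passage 5 were called, all lower in LM8, against 3.76%, and 13 passed unadjusted against 38.6%, of which 8 were above background on no array of either group. Without early Dunn replicate 2, 17 were called, and nothing is read from this count since the share of all probes in that fit is not given. Of the 5 called as reported, 4 are Rhox2 probes. Nothing is read from these, since the early LM8 arrays also enter the rise that chose the family. Outside the Rhox2 probes 1 of 21 was called as reported, Rhox5. At late passage 2 were called, Rhox2e higher and Rhox5 lower in LM8, against 2.91%, and nothing is read from Rhox2e, whose rise on these late LM8 arrays belongs to the pattern that chose the family. Between the late lines 3 passed unadjusted against 12.8%. The number called between the late lines, 2 as reported, fell to 0 with the replicate block and without scaling. It was also 0 without any 1 of the late LM8 arrays or of late Dunn replicates 2 and 3. Without late Dunn replicate 1 it was 5, and no share of all probes is given for these other settings. For the interaction 5 were called against 0.434%, and 6 passed unadjusted against 4.48%. Of the 5, 4 are Rhox2 probes, from which nothing is read since the interaction is built on the rise that chose the family. The other, Rhox5, was 1 of the 21 remaining probes. The median over the 25 probes was -0.01 for passage in Dunn, 0.40 for passage in LM8, -1.45 between the lines at early passage and -0.83 at late passage. Over all probes the medians were -0.33, -0.20, -0.85 and -0.66. Most of the 25 probes were near background, so nothing about the family is read from their medians.

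The genes beside the cluster were compared with it. Of the 10 nearest annotated genes with a probe on each side, 20 in all with 27 probes, 1 was called, in late against early LM8, where 2.19% of all probes were. At the unadjusted threshold 2 were higher (Gm9 and Tmem255a) and 1 lower in that comparison, against 7.23% of all probes. With passage in Dunn 0 passed, against 3.98%. Between the lines 2 were higher and 6 lower in LM8 at early passage, against 38.6%, and 5 higher and 1 lower at late passage, against 12.8%. The gene called was Gm9, a predicted gene and the nearest to the Rhox1 end. Its scaled log2 signal was -1.24, -1.50 and -1.42 in late LM8, the only arrays on which it was well above background, and -7.98, -6.68 and -8.58 in early LM8. Late LM8 was at least 34.9-fold higher (fitted difference 6.36 ± 0.47, limma, adjusted p = 0.00136; 0.0201 with the replicate block), and the adjusted p stayed between 6.66e-04 and 0.0125 when each array was left out. In Dunn it was above background on no array, so no fold is given, and its interaction did not pass (limma, adjusted p = 0.133). Zbtb33, which encodes the methyl-CpG binding protein Kaiso and is nearest to the Rhox13 end, was not called. Apart from Gm9, 19 neighbouring probes of 13 genes could be measured in LM8, and their late minus early differences ran from -0.37 to 1.26 with a median of 0.26. In Dunn, 18 probes of 13 genes ran from -0.85 to 1.38.

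**Figure D4:**
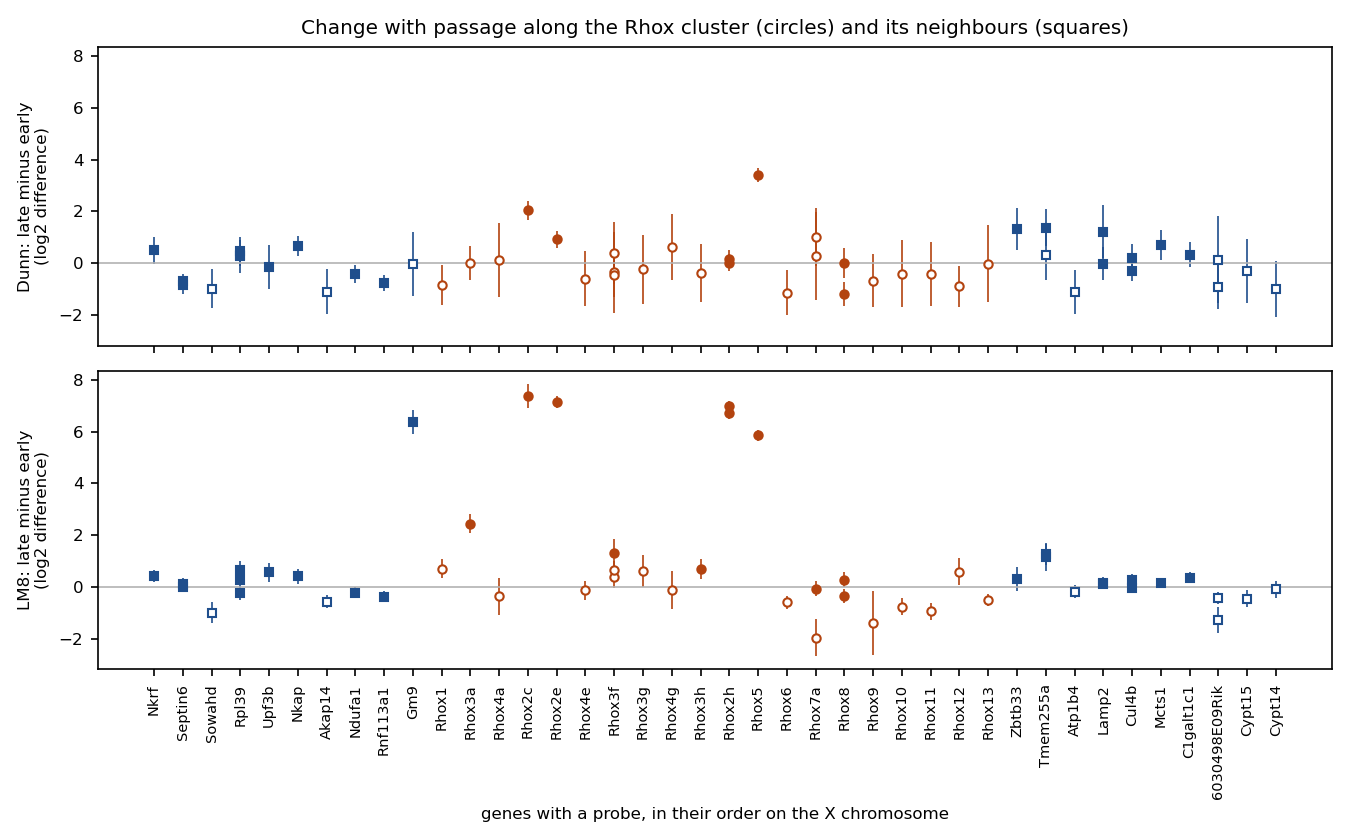
Late minus early log2 difference (vertical axis, with the standard error of the fit) in Dunn (top) and LM8 (bottom) for the Rhox probes (circles) and for the neighbouring genes (squares), in their order on the X chromosome, with filled symbols where a probe was well above background on at least 2 of 3 arrays in a group compared. In LM8 the Rhox2 probes and Rhox5 stand between 5.85 and 7.37 and the measured neighbours other than Gm9 between -0.37 and 1.26, while the point of Gm9 is a fitted value against early arrays on which it was not above background.

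The genes whose signal over the 12 arrays was most like that of Rhox2c were Rhox2e (Pearson's r = 0.982), Gm10439 (0.975), Nlrp4c (0.964), Lyz1 (0.959) and Gm10487 (0.957), among 15698 probes. Gm10439 and Gm10487 are on the X chromosome, Nlrp4c, a gene of the oocyte, on chromosome 7 and Lyz1, a lysozyme, on chromosome 10. Rhox5 had r = 0.948 with Rhox2c, Rhox3a 0.789 and the Rhox8 probes 0.31 and -0.279. The pair of Rhox2h probes had 0.997 with each other. The 12 arrays fall into 4 groups, so these values describe the order of the groups. Group means of Nlrp4c were -3.73 in early Dunn, -0.61 in late Dunn, -7.96 in early LM8 and -1.88 in late LM8, the same order as for Rhox5.

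Genes known for silencing the cluster or acting with Rhox5 were counted from lists that were chosen with earlier results of these data known, and their counts of genes stand beside the shares of all probes given above (at the unadjusted threshold 7.23% with passage in LM8, 38.6% between the lines at early passage and 12.8% at late passage). Of 17 DNA methylation and histone regulators with a probe, among them Dnmt1, Uhrf1 and Setdb1, 0 were called by limma in any comparison. At the unadjusted threshold 0 passed with passage in either line, 4 passed between the lines at early passage (Setdb1 higher in LM8 and Dnmt1, Dnmt3b and Hdac1 lower) and 3 at late passage (Tet3, Dnmt3b and Hdac1 lower). The median over their 26 probes was -0.15 for passage in Dunn and -0.06 in LM8. Other probes of the same genes did not pass between the lines. At early passage these differed by -0.07 and 0.87 for Hdac1 and by -0.30 for Dnmt3b. At late passage they differed by -0.20 and 0.75 for Hdac1, -0.76 and -0.94 for Dnmt3b, and -1.56 and -0.09 for Tet3. Of 18 germline genes that promoter methylation is known to silence, 0 were called by limma in any comparison. At the unadjusted threshold 0 passed with passage in Dunn, and with passage in LM8 Hormad1 and Sycp3 had a probe that was higher and Mov10l1 and Hormad1 a probe that was lower. Between the lines 1 was higher and 8 lower in LM8 at early passage, and 1 higher and 1 lower at late passage. The probes of the 8 were above background on no early array of either line. Of 16 regulators and targets of Rhox5, 1 fell with passage in LM8, against 2.19% of all probes called, and 2 were lower in LM8 than in Dunn at both passages, against 3.76% and 2.91%. At the unadjusted threshold 1 was higher with passage in Dunn (Unc5c), 5 were lower in LM8 at early passage, and 1 was higher and 2 lower at late passage. Ets1, an ETS-family transcription factor, fell with passage in LM8 by 1.67 ± 0.23 on one probe (limma, adjusted p = 0.0150) and by 1.58 ± 0.19 on the other (adjusted p = 0.00894). Unc5c, a netrin receptor known as a gene that Rhox5 holds down, was above background on no LM8 array with probe A_52_P380301, and was at least 2.89-fold lower in LM8 at early passage (limma, adjusted p = 0.00475) and at least 9.88-fold lower at late passage (adjusted p = 9.32e-04). At early passage this probe was above background on 1 Dunn array. A second Unc5c probe, A_66_P129566, was above background on no early array of either line, so its call at early passage is given no fold. At late passage this probe was above background on 2 LM8 and 3 Dunn arrays. It was not called there (difference -2.7 ± 1.15, limma, adjusted p = 0.274).

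Markers of the cells that normally use Rhox genes were counted in the same way. Of 8 Sertoli cell markers, Cldn11 and Inhbb were lower in late than in early LM8 by limma, where 2.19% of all probes were called. Sox9 was higher by 1.29 ± 0.46 there and passed the unadjusted threshold only (limma, adjusted p = 0.282), and Inhbb was lower in LM8 than in Dunn at both passages. Their summed level relative to the 75th percentile ran from 0.0986 to 0.171 in early LM8 and from 0.111 to 0.165 in late LM8. In Dunn this sum ran from 0.389 to 0.489 at early passage and from 0.56 to 0.899 at late passage, with no overlap. Yet 0 of the 8 passed the unadjusted threshold with passage in Dunn, and the median over their probes was -0.38. Only 1 of the 8 was above background on all 3 arrays in either Dunn group. Of 8 germ cell markers 0 were called by limma, with 0 at the unadjusted threshold for passage in Dunn, 1 (Sycp3, higher) for passage in LM8 and 3 between the lines at early passage, and their sum ran from 0.0844 to 0.18 in early LM8 and from 0.119 to 0.151 in late LM8. Of 7 trophoblast markers 1 was called, Hand1, which was lower in LM8 than in Dunn at early passage by -2.20 ± 0.35 (limma, adjusted p = 0.0236), where 3.76% of all probes were called. Elf5 and Ascl2 passed the unadjusted threshold as higher with passage in LM8, Elf5 with no array above background in either group and Ascl2 with 2 late arrays. The trophoblast sum ran from 22 to 45.3 in early LM8 and from 28.9 to 30.4 in late LM8. In Dunn it ran from 38.6 to 137 at early passage and from 32.6 to 106 at late passage. The part of these markers in the Rhox values was not tested.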

How the data were processed

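Expression was measured on 12 single-colour Agilent mouse arrays, 3 per group. Per array, the authors deposited the scanner output of Agilent Feature Extraction, whose processed signal is an intensity after background subtraction with no scaling between arrays, and a table that holds the same intensities, rounded. The paper gives TriReagent and the labels give RNeasy for the RNA, and 1 label names human lines for these mouse cells.

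Control spots and outlier spots were left out, and spots of 1 probe were averaged as log2 values, from which each array's 75th percentile was then taken off. Probes were named by accession through the RefSeq annotation of GRCm38.p6, which named 67.4% of them. The fits used limma 3.58.1 (R 4.3.3) on the 6 arrays of the groups compared (12 for the interaction), with Benjamini-Hochberg adjustment over all probes. The steps were tested on simulated data. Probe sequences were not analysed here. Promoters were aligned with Biopython 1.88 and plots drawn with matplotlib 3.10.9.

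The members and lists were chosen with earlier results of these data known. All Rhox genes were named, with the 5 genes most like Rhox2c, the nearest gene on each side of the cluster, and list members that were called. For Rhox and neighbouring genes, differences are given for probes well above background on at least 2 of 3 arrays in a group compared. For a fold given as "at least", signals of the dimmer group were raised to the dimmest signal called above background on their array. Some brighter signals were still not called, so such a fold is not a strict bound. The change of Rhox2c chose the family, and all Rhox2 probes are given without p-values of their own. They are included in the counts of probes called, where nothing is read from them.

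The replicate number marks a shared slide. For passage, deviations of same-numbered arrays from their group means correlated at 0.678, 0.636 and 0.226 in Dunn and at 0.281, -0.011 and 0.133 in LM8. Between the lines they correlated at 0.211, -0.07 and 0.183 at early passage and at 0.334, 0.321 and 0.047 at late passage. The correlation was largest for passage in Dunn at each replicate number, but every slide held 1 array of each group, so the slide is shared in all comparisons. The alternatives were quantile normalization, no scaling, a floor or filter on dim signals, 1 fit over 12 arrays, the replicate block, the methods' t-test without moderation of variances, leaving out arrays, and, chosen after seeing the data, normexp with an offset of 50 on the median signal, since the files hold no mean signal. The number of arrays limits the precision.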

Additional observations from a re-analysis of the deposited data

Results flagged for a closer look

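The change of Rhox5 with passage differed between the lines by a test of the difference itself. Late minus early cells was larger in LM8 than in Dunn by 2.44 on the log2 scale (limma, interaction of line and passage over 12 arrays, adjusted p = 0.00671), and all 6 late arrays lay above the early arrays of their line. The adjusted p was between 0.00775 and 0.0376 in the 12 fits that each left out an array, and 0.0126 with the replicate block. The call was lost without scaling, where the difference was 1.84 (adjusted p = 0.534), and with normexp, where it was 1.47 (adjusted p = 0.0952).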

How the results depend on the processing

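Over 47 differences of single Rhox probes, 692 values were computed under other settings, of which 596 kept direction and side of the threshold and 39 changed sign, all of them for differences that did not pass. The number of Rhox probes called in late against early Dunn, 0 as reported, was 3 unadjusted, 1 with quantile normalization, normexp or 1 fit over all arrays, and 2 among probes well above background, and it was 0 with the replicate block and in each fit that left out an array. At early passage between the lines, 5 as reported became 13 unadjusted (against 38.6% of all probes), 24 with normexp and 18 with a floor. The count ran from 5 to 17 when arrays were left out, with 17 without early Dunn replicate 2. Only 7 of the 25 probes met the bar for a fold in that comparison. At late passage, 2 became 5 with quantile normalization, 0 without scaling, 0 with the replicate block, and from 0 to 5 when arrays were left out, with 5 without late Dunn replicate 1. For the interaction, 5 became 3 without scaling. The cause was not tested. For passage in LM8 the count was 5 with the replicate block, which lost Rhox3a. The shares of all probes called under these other settings are not given. Nothing about the family is read from these counts, which include the Rhox2 probes.

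Signs changed as follows. With normexp, the differences were -0.01 for Rhox2h in Dunn, -0.09 for Rhox3f and -0.14 for Rhox3h with passage in LM8, -0.58 for Rhox3a, -0.75 for Rhox3h and -0.54 for Rhox8 (A_55_P2130725) between the late lines, and 0.43 for the Rhox7a interaction. With a floor they were -0.39 for Rhox3a, -0.61 for Rhox3h and -0.30 for Rhox8 (A_55_P2130725) between the late lines and 0.32 for the Rhox7a interaction. Without scaling they were 0.86 and 0.70 for the Rhox8 probes between the early lines, 0.52 for Rhox8 (A_55_P1981829) and 0.42 for Rhox3f between the late lines, 0.02 for Rhox8 (A_55_P2130725) and 0.30 for Rhox7a with passage in LM8, and -0.34 for the Rhox8 interaction. With quantile normalization they were 0.35 for Rhox3f between the late lines and -0.01 for the Rhox8 interaction. With arrays left out, Rhox2h ran from -0.14 to 0.15 and Rhox8 from -0.29 to 0.53 in Dunn, and with passage in LM8 Rhox8 from -0.01 to 0.47 and Rhox7a from -0.31 to 0.22. Between the late lines Rhox3a ran from -0.16 to 0.49, Rhox3f from -1.45 to 0.83, Rhox3h from -0.27 to 1.52, Rhox7a from -1.63 to 0.22 and Rhox8 (A_55_P2130725) from -0.32 to 0.33. The interaction ran from -0.08 to 2.20 for Rhox3f, from -1.76 to 0.08 for Rhox7a and from -0.25 to 0.57 for Rhox8. Signal over background limits what the 14 dim Rhox probes can show.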
